A study of Mus musculus with 72 samples.

Results

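Low Protein DBA/2J male livers were set against Medium Protein DBA/2J male livers, 12 of the 72 libraries of the study, with 6 animals per diet and 1 library per animal. The members were chosen by the strain, sex and diet in the sample titles, and every expressed gene was examined. DBA/2J is an inbred mouse strain. The mice were placed on a Low Protein, Medium Protein or Control diet at 10 weeks of age and kept on it for 13 weeks, so that all were 23 weeks old when killed, after 16 h of fasting, at a housing temperature near 22 °C. The labels do not state the protein content of each diet. The same liver assay covered Control DBA/2J males, DBA/2J females and C57BL/6J mice of both sexes, another inbred strain, in groups of 6.

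Dietary amino acids that are not built into protein are broken down in the liver, and their nitrogen leaves as urea. Protein restriction is known to slow this breakdown and, when amino acids run short inside the cell, to engage the transcription factor ATF4 and the liver hormone Fgf21. The liver also makes cholesterol from acetyl-CoA through mevalonate and squalene. The membrane-bound transcription factor SREBP2, encoded by Srebf2, switches the genes of this route on when membrane sterol is low, and related factors control the making of fatty acids. Mice that have fasted normally have low activity in both synthetic routes and high fatty acid oxidation.

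Library totals were 30.3 to 33.5 M counts in Low Protein livers and 30.6 to 34.6 M counts in Medium Protein livers. Levels are in CPM, the counts of a gene per 1 M counts of its library, after TMM scaling, which corrects library size for a few dominant genes. Hepatocyte markers made up 83280 to 102800 CPM in Low Protein livers and 93190 to 116800 CPM in Medium Protein livers, so the tissue label held. No library shared its values with another, with pairwise correlations of log2(CPM + 1) of 0.992 to 0.997. Mitochondrial ribosomal RNA took 13.8% to 19.2% of counts in Low Protein livers and 17.6% to 20.8% in Medium Protein livers. The sample codes in the labels, a letter and a number, carry the number 10 in all Low Protein libraries and 9 in all Medium Protein libraries. The labels do not say what the codes stand for, and any effect tied to the number cannot be told apart from diet.

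No gene passed the test between Low and Medium Protein in DBA/2J males. Of 19362 genes tested in edgeR's quasi-likelihood fit, 0 (0%) had an adjusted p below 0.05, and the smallest adjusted p was 0.241, for Rdh16f2. At an unadjusted p below 0.05 there were 1103 genes (5.70%), 555 higher (2.87%) and 548 lower (2.83%) in Low Protein livers. DESeq2 on the same counts called 7 genes, Aatk higher and Arap2, Saa2, Rdh16f2, Gm15793, Gm12744 and Gm26883 lower, and the last 3, named after their values were seen, are predicted genes without a known role. In the authors' deposited table for this comparison, 0 of 17575 genes had an adjusted p below 0.05, the smallest was 0.105, and 967 had a p below 0.05. The 95% interval of a log2 fold change reached a median of 0.25 to either side over the 13778 genes whose log2 CPM averaged 0 or more. For 95.4% of these genes the whole interval lay within 1 of a log2 fold change of 0. Over all genes, 9895 (51.1%) had a fold change above 0 and the median log2 fold change was 0.00.

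The genes of cholesterol synthesis stood higher in Low Protein livers as a list, although no member passed the adjusted test. Of the 26 members tested, 25 had a log2 fold change above 0, 19 had an unadjusted p below 0.05, all of these higher, and the median log2 fold change was 0.64. Over all genes, 2.87% were higher at that p. The members were measured in the same animals, so they are not independent observations and their count gives no p-value for the list. The smallest adjusted p among the members was 0.352. The CPM of the 26 members summed to 1782 at the lowest, 2189 at the median and 2873 at the highest in Low Protein livers, and to 1180, 1615 and 1953 in Medium Protein livers. In 5 of 6 Low Protein animals the sum lay above that of every Medium Protein animal. In the authors' deposited table, 25 of the 26 members were above 0, 20 of them with a p below 0.05. The median log2 fold change there was 0.67. That table comes from the same libraries, so it is not separate evidence.

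**Figure D1:**
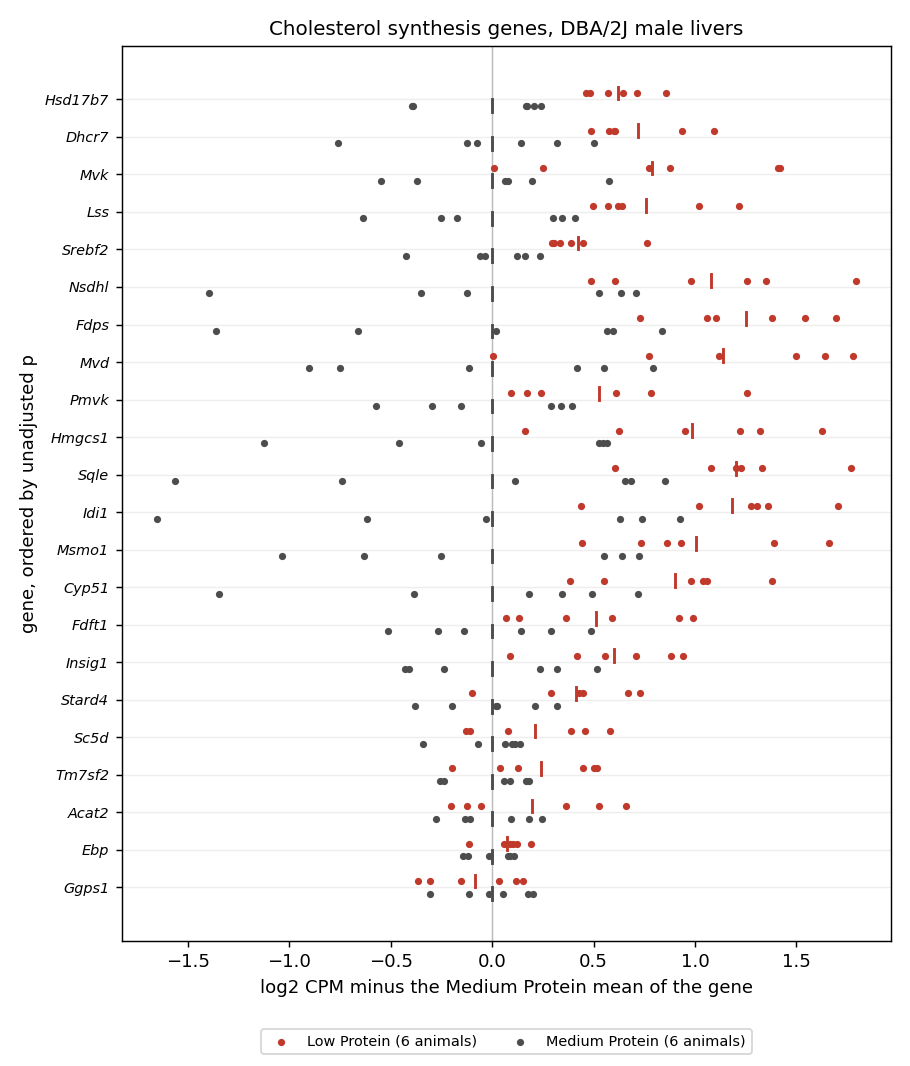
Level of 22 of the 26 cholesterol synthesis genes in every animal, as log2 CPM minus the Medium Protein mean (x axis, log2 units), with Low Protein animals in red above Medium Protein animals in grey and group means as ticks. Genes run from the smallest unadjusted p, and 21 of the 22 drawn have a fitted fold change above 0, with wide spread in both groups.

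The early steps of the route make mevalonate. Hmgcs1, which makes HMG-CoA, had 101, 193 and 279 CPM at the lowest, median and highest in Low Protein livers, against 41.4, 109 and 134 CPM in Medium Protein livers. Its log2 fold change was 0.94 ± 0.35 (standard error, SE, as for every fold change given here; unadjusted p = 0.0092, adjusted p = 0.685). The groups overlapped, although the Low Protein median lay above the highest Medium Protein value. Mvk, which phosphorylates mevalonate, had 6.21, 10.9 and 16.5 CPM in Low Protein livers and 4.22, 6.48 and 9.19 CPM in Medium Protein livers, with a log2 fold change of 0.84 ± 0.23 (adjusted p = 0.457). Pmvk and Mvd, the enzymes that follow Mvk, had log2 fold changes of 0.54 ± 0.20 and 1.11 ± 0.39.

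The isoprenoid and squalene steps had some of the larger differences. Fdps, which joins isoprene units into farnesyl diphosphate, had 76.5, 109.5 and 149.5 CPM in Low Protein livers and 18.0, 57.6 and 82.4 CPM in Medium Protein livers, with a log2 fold change of 1.10 ± 0.38. Sqle, squalene epoxidase, had 27.4, 41.85 and 61.5 CPM in Low Protein livers and 6.11, 24.0 and 32.6 CPM in Medium Protein livers, with a log2 fold change of 1.02 ± 0.39. In both genes the ranges crossed, and the lowest Medium Protein animal stood far below its group's median. Idi1, the isomerase of isoprene units, and Fdft1, squalene synthase, had log2 fold changes of 1.00 ± 0.42 and 0.52 ± 0.24. Ggps1, which leads farnesyl diphosphate away to geranylgeranyl diphosphate rather than to sterols, was the only member below 0, at -0.08 ± 0.09.

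Lss, lanosterol synthase, closes squalene into the first sterol. It had 40.8, 44.9 and 67.3 CPM in Low Protein livers and 18.65, 30.7 and 38.4 CPM in Medium Protein livers, with a log2 fold change of 0.74 ± 0.21 (adjusted p = 0.482). The lowest Low Protein animal stood above the highest Medium Protein animal. Hsd17b7, a reductase in the removal of methyl groups from lanosterol, had 83.55, 92.3 and 109.8 CPM in Low Protein livers and 46.0, 68.1 and 71.6 CPM in Medium Protein livers. Its groups did not overlap either, and the log2 fold change was 0.60 ± 0.15 (95% interval 0.30 to 0.91, adjusted p = 0.352). Across all genes, 28 (0.145%) had groups that did not overlap with Low Protein higher, and Lss, Hsd17b7 and Srebf2 of this list were among them. Nsdhl, Msmo1 and Cyp51, which also act in the removal of methyl groups from lanosterol, had log2 fold changes of 0.99 ± 0.33, 0.91 ± 0.39 and 0.80 ± 0.35.

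Dhcr7, which reduces 7-dehydrocholesterol to cholesterol, had 21.2, 22.9 and 32.3 CPM in Low Protein livers and 8.91, 15.5 and 21.4 CPM in Medium Protein livers, with a log2 fold change of 0.68 ± 0.17 (adjusted p = 0.352). The groups met at the edge, 21.2 CPM in the lowest Low Protein animal against 21.4 CPM in the highest Medium Protein animal. Members with an unadjusted p above 0.05 and a positive value were Insig1 at 0.58, Stard4 at 0.42, Tm7sf2 at 0.25, Sc5d at 0.23, Acat2 at 0.22 and Ebp at 0.08. Without Low Protein replicate 4, Sc5d had 0.15 and Acat2 0.12. Insig1 encodes the protein that holds the SREBP complex back in the endoplasmic reticulum.

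Srebf2 itself had 23.6, 24.7 and 32.7 CPM in Low Protein livers and 14.3, 19.9 and 22.7 CPM in Medium Protein livers, without overlap, and a log2 fold change of 0.42 ± 0.14 (adjusted p = 0.652).

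The difference was not even over the animals. Of the Low Protein livers, replicate 4 was the highest of all 12 in 16 of the 26 genes and replicate 1 in 9. Of the Medium Protein livers, replicate 4 was the lowest of all 12 in 14 genes and replicate 5 in 10. Leaving out any 1 of the 12 animals left 25 members above 0 and the median log2 fold change between 0.55 and 0.71. Against Control, which shares animals with this comparison, the list's median log2 fold change was 0.58 on Low Protein and -0.07 on Medium Protein. The same diet comparison gave a median of 0.46 for the list in DBA/2J females and 0.20 in C57BL/6J males.

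Promoters are printed for the 3 members whose groups did not overlap and for Hmgcs1, the classic sterol-regulated gene, to show the letters that SREBP2 and its partner NF-Y are known to read. Each runs from 250 bases before to 50 after the gene's RefSeq start on GRCm38.p6, 300 bases, 5′ to 3′ on the gene's strand. Capitals mark CCAAT or its reverse complement ATTGG, the NF-Y box, and TCACNCCAC or its reverse complement GTGGNGTGA, a sterol regulatory element.
Hsd17b7, chr1:169969156-169969455, minus strand: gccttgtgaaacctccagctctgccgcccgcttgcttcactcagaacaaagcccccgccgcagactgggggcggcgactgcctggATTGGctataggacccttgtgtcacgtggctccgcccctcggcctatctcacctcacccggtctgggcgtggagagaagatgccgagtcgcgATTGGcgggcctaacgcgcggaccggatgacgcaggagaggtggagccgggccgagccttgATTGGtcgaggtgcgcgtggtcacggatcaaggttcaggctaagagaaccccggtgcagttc
Lss, chr10:76531355-76531654, plus strand: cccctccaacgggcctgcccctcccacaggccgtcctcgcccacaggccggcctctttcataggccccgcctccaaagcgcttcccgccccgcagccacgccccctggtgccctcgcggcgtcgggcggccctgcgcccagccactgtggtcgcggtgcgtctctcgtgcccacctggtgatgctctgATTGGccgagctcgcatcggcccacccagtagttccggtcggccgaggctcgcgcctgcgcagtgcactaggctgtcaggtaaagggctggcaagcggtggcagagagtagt
Srebf2, chr15:82147019-82147318, plus strand: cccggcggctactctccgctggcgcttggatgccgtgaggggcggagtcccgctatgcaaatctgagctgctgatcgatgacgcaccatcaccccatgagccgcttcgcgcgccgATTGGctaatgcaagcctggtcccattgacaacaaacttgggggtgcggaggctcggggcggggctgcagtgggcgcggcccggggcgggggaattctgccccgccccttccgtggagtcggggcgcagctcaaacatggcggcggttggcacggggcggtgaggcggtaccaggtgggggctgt
Hmgcs1, chr13:119690101-119690400, plus strand: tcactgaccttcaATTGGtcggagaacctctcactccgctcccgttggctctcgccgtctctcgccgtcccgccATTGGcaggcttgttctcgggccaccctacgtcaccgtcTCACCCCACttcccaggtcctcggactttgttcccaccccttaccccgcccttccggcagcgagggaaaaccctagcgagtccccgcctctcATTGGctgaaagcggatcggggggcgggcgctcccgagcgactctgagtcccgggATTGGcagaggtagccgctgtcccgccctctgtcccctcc
Hsd17b7 held 3 NF-Y boxes, Lss 1, Srebf2 1 and Hmgcs1 4 beside 1 sterol element. RefSeq gave a promoter for 18 of the 26 members, 21 promoters in all. Of these, 17 (81.0%) held an NF-Y box, against 12289 of 32851 promoters genome-wide (37.4%). The ATF4 targets, a list described below, held one in 22 of 40 promoters (55.0%). The sterol element's letters occurred in 1 of the 21 (4.76%) and in 408 of all promoters (1.24%). The matches describe these windows only and do not show binding.

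Fatty acid and triglyceride synthesis leaned the same way with smaller values. Of its 30 members tested, 25 had a log2 fold change above 0, and the median was 0.23. At an unadjusted p below 0.05, 9 were higher and 0 lower. The members' summed CPM overlapped between the diets, at 4856, 6503 and 10990 in Low Protein livers and 4565, 5234 and 6957 in Medium Protein livers. In 2 of 6 Low Protein animals the sum lay above that of every Medium Protein animal. Acly, which makes acetyl-CoA for both synthetic routes, had 99.6, 105 and 133 CPM in Low Protein livers and 76.4, 84.5 and 97.2 CPM in Medium Protein livers. Its groups did not overlap, and the log2 fold change was 0.40 ± 0.11 (adjusted p = 0.457). Fasn, fatty acid synthase, had 117, 157 and 245 CPM in Low Protein livers and 63.6, 103 and 164 CPM in Medium Protein livers, with overlapping groups and a log2 fold change of 0.67 ± 0.22 (adjusted p = 0.659). Glycolysis, which supplies carbon to both routes, had 13 of 17 members above 0 and 6 higher at an unadjusted p below 0.05, with a median of 0.15. Eno1, enolase, had 109, 115 and 135 CPM in Low Protein livers and 87.1, 94.2 and 117 CPM in Medium Protein livers, overlapping, with a log2 fold change of 0.29 ± 0.08 (adjusted p = 0.487).

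**Figure D2:**
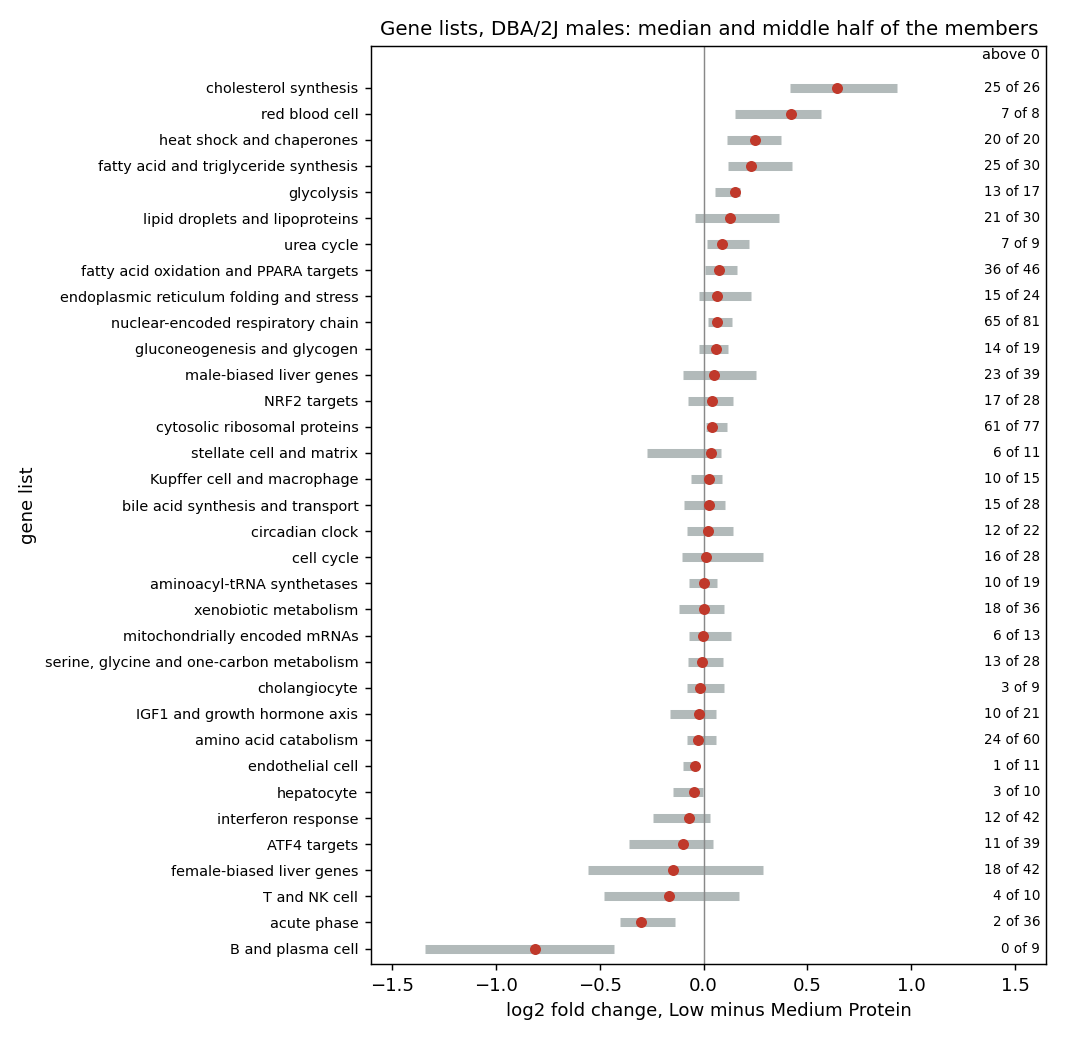
Median (dot) and middle 50% (bar) of the members' log2 fold change, Low against Medium Protein in DBA/2J males (x axis), for the lists with at least 8 members tested, with the count of members above 0 at the right. Cholesterol synthesis lies at 0.64 and B and plasma cell markers at -0.81, while the median of all genes is 0.00.

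The genes that respond to scarce amino acids showed no difference past the test. Fgf21, the liver hormone released under protein restriction, had 13.2, 33.4 and 47.2 CPM in Low Protein livers and 17.1, 25.5 and 53.5 CPM in Medium Protein livers. The groups overlapped throughout, and the log2 fold change was 0.18 ± 0.38 (95% interval -0.58 to 0.94, adjusted p = 0.982). Asns, asparagine synthetase and a defining ATF4 target, was below 1 CPM in all 12 livers, with a log2 fold change of -0.07 ± 0.75. Of 39 ATF4 targets tested, 11 were above 0, 1 was higher and 0 lower at an unadjusted p below 0.05, and the median was -0.10. That 1 gene was Wars, which charges tryptophan transfer RNA, with 8.22, 9.92 and 13.4 CPM in Low Protein livers and 7.75, 8.25 and 9.33 CPM in Medium Protein livers, a log2 fold change of 0.30 ± 0.10. Trib3, a pseudokinase that ATF4 induces, had a log2 fold change of -0.55 ± 0.30, which became -0.24 without Medium Protein replicate 4. Of 19 aminoacyl-tRNA synthetases, 10 were above 0 and the median was 0.00.

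Amino acid breakdown and the urea cycle were close to level between the diets in DBA/2J males. Of 60 amino acid catabolism genes, 24 were above 0, 0 were higher and 1 lower at an unadjusted p below 0.05, and the median was -0.03. Scaling by library totals alone put 33 of them above 0 with a median of 0.02, so the list's direction depended on the scaling. The 1 lower gene was Tdo2, which opens the ring of tryptophan, with 717, 898 and 984 CPM in Low Protein livers and 890, 1055 and 1229 CPM in Medium Protein livers, overlapping, and a log2 fold change of -0.27 ± 0.14 (adjusted p = 0.869). Of the 9 urea cycle genes, 7 were above 0 with a median of 0.09. Cps1, which feeds ammonia into the cycle, had 2738, 3841 and 5383 CPM in Low Protein livers and 2957, 3690 and 4394 CPM in Medium Protein livers. Arg1, arginase, which releases urea, had 444, 644 and 906 CPM in Low Protein livers and 495, 574 and 617 CPM in Medium Protein livers. Both genes overlapped fully between the diets, with log2 fold changes of 0.08 ± 0.18 and 0.26 ± 0.17. Without Low Protein replicate 6 that of Arg1 was 0.15.

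Other genes known to follow diet or growth signals did not pass either. Igf1, the growth factor that the liver secretes in response to growth hormone, had 499.8, 609 and 655 CPM in Low Protein livers and 555, 591 and 650.0 CPM in Medium Protein livers, with a log2 fold change of -0.02 ± 0.11. In its axis, Jak2, the kinase of the growth hormone receptor, had a log2 fold change of -0.25 ± 0.09 and Irs1, an insulin receptor substrate, one of 0.35 ± 0.14. Igfbp1, which binds Igf1, and Cyp7a1, which opens bile acid synthesis, had -0.70 ± 0.61 and -0.16 ± 0.44. Igfbp1 had -1.06 without Low Protein replicate 6 and -0.46 without Medium Protein replicate 1. Pdk4, the fasting-induced brake on pyruvate oxidation, had 8.07, 8.62 and 42.5 CPM in Low Protein livers and 3.72, 8.10 and 13.1 CPM in Medium Protein livers. Lepr, the leptin receptor, had 6.66, 9.33 and 28.35 CPM in Low Protein livers and 6.36, 7.94 and 15.25 CPM in Medium Protein livers. The highest Low Protein value of both genes came from replicate 3, and the log2 fold changes of 0.78 ± 0.49 for Pdk4 and 0.50 ± 0.43 for Lepr became 0.0456 and 0.0795 without it. Meg3, an imprinted long noncoding RNA, had a log2 fold change of -0.85 ± 0.43 here. Set against Control it had -2.27 on Low Protein and -1.41 on Medium Protein.

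Among single genes, the smallest p on the higher side belonged to Aatk, a membrane kinase best known from neurons. It had 5.08, 8.90 and 11.0 CPM in Low Protein livers and 3.09, 4.49 and 5.59 CPM in Medium Protein livers, overlapping at the edge, and a log2 fold change of 0.92 ± 0.21 (adjusted p = 0.251). Lipg, endothelial lipase, which trims phospholipid from high-density lipoprotein, had 13.9, 20.8 and 26.3 CPM in Low Protein livers and 6.27, 8.71 and 16.1 CPM in Medium Protein livers, a log2 fold change of 1.07 ± 0.27 (adjusted p = 0.352). Plekhb1 and Tlr12 had 0.74 ± 0.17 and 0.81 ± 0.21. Rtn4ip1, a mitochondrial oxidoreductase, had 17.3, 18.4 and 22.4 CPM in Low Protein livers and 13.4, 15.0 and 16.65 CPM in Medium Protein livers. Its groups did not overlap, and the log2 fold change was 0.35 ± 0.10 (adjusted p = 0.482). Leaving out predicted and unnamed genes and those with a mean log2 CPM below 0, 4 of the 10 genes with the smallest p on this side, Acly, Mvk, Hsd17b7 and Dhcr7, belonged to the lists of sterol or fatty acid synthesis. These lists had 26 and 30 members among the 19362 genes tested. The same p-values gave the list counts above, so this is not separate evidence.

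On the lower side, Rdh16f2, a member of the retinol dehydrogenase 16 family, led all genes. It had 16.7, 22.5 and 35.7 CPM in Low Protein livers and 26.4, 44.9 and 72.1 CPM in Medium Protein livers, with overlap between 26.4 and 35.7 CPM, and a log2 fold change of -0.85 ± 0.18 (95% interval -1.21 to -0.49, adjusted p = 0.241). It passed at an adjusted p of 0.0142 in DESeq2, of 0.0497 without Low Protein replicate 3 and of 0.0184 without Medium Protein replicate 3. Rdh16f2 has close relatives, and how the authors' quantification divided reads among them is unknown. Arap2, a regulator of Arf GTPases, had 28.9, 32.6 and 35.6 CPM in Low Protein livers and 34.9, 40.1 and 41.8 CPM in Medium Protein livers, a small and tight difference of -0.29 ± 0.06 (adjusted p = 0.251). Nt5e, which makes adenosine outside the cell, and Tanc1, a scaffold protein, had log2 fold changes of -0.55 ± 0.15 and -0.22 ± 0.06. Tanc1 was 1 of 25 genes (0.129%) whose groups did not overlap with Low Protein lower, at 14.7, 18.55 and 18.7 CPM in Low Protein livers and 19.2, 21.0 and 22.2 CPM in Medium Protein livers. Pld1, phospholipase D1, Antxr2, an anthrax toxin receptor, and Ehbp1 had -0.33 ± 0.09, -0.45 ± 0.13 and -0.27 ± 0.08.

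**Figure D3:**
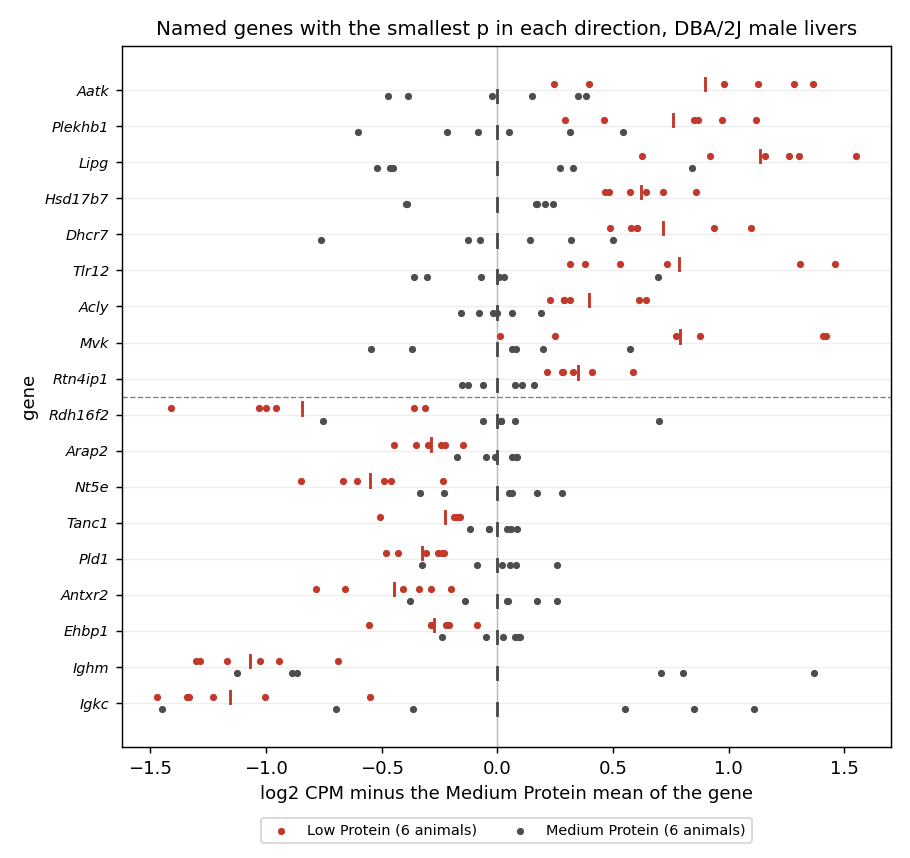
Level in every animal of 9 of the 10 genes named for a small p on the higher side and 9 of the 10 on the lower side, leaving out predicted or unnamed genes and those whose log2 CPM averaged below 0 (Saa2 is plotted with the acute phase genes), as log2 CPM minus the Medium Protein mean (x axis, log2 units), Low Protein in red above Medium Protein in grey, ticks at group means. A dashed line separates the directions; none of these genes has an adjusted p below 0.241.

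Acute phase genes, which the liver makes in inflammation, stood lower in Low Protein livers, in part through 1 Medium Protein animal. Of 36 members, 2 were above 0, 5 were lower and 0 higher at an unadjusted p below 0.05, and the median was -0.30. Without Medium Protein replicate 6 the median was -0.16. Saa2, a serum amyloid, had 1.17, 2.98 and 4.98 CPM in Low Protein livers and 2.45, 3.595 and 853 CPM in Medium Protein livers. Its log2 fold change of -5.56 ± 1.58 (adjusted p = 0.487) became -0.13 without that replicate. Saa1 had 5.83, 10.8 and 19.9 CPM in Low Protein livers and 14.2, 18.55 and 906 CPM in Medium Protein livers, with a log2 fold change of -3.85 ± 1.23, and of -0.72 without it. Lcn2, a siderophore-binding protein, had 1.64, 2.27 and 3.04 CPM in Low Protein livers and 1.91, 2.97 and 92.5 CPM in Medium Protein livers. The highest values of all 3 genes came from the same animal. Saa1 and Saa2 are near-identical, and the division of reads between them is uncertain. Fgb, a fibrinogen chain, had 2269, 2894 and 3303 CPM in Low Protein livers and 2831, 3638 and 4491 CPM in Medium Protein livers, with a log2 fold change of -0.33 ± 0.17.

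Markers of B and plasma cells also stood lower in Low Protein livers. All 9 tested members were below 0, 5 of them at an unadjusted p below 0.05, and the median was -0.81. Ighm, the heavy chain of IgM, had 3.71, 4.28 and 5.68 CPM in Low Protein livers and 4.20, 9.99 and 23.6 CPM in Medium Protein livers, and Igkc, the kappa light chain, had 1.198, 1.37 and 2.27 CPM in Low Protein livers and 1.22, 3.73 and 7.17 CPM in Medium Protein livers. Both had a log2 fold change of -1.38 ± 0.40 (adjusted p = 0.487). The summed markers ran from 7.315 to 10.5 CPM in Low Protein livers and from 7.21 to 37.0 CPM in Medium Protein livers, where replicates 1, 5 and 6 had 37.0, 26.8 and 28.0 CPM. In bulk liver, fewer cells of a type and less RNA per cell cannot be told apart. Without Medium Protein replicate 6, 1 of the 9 was above 0 and the median was -0.81.

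**Figure D4:**
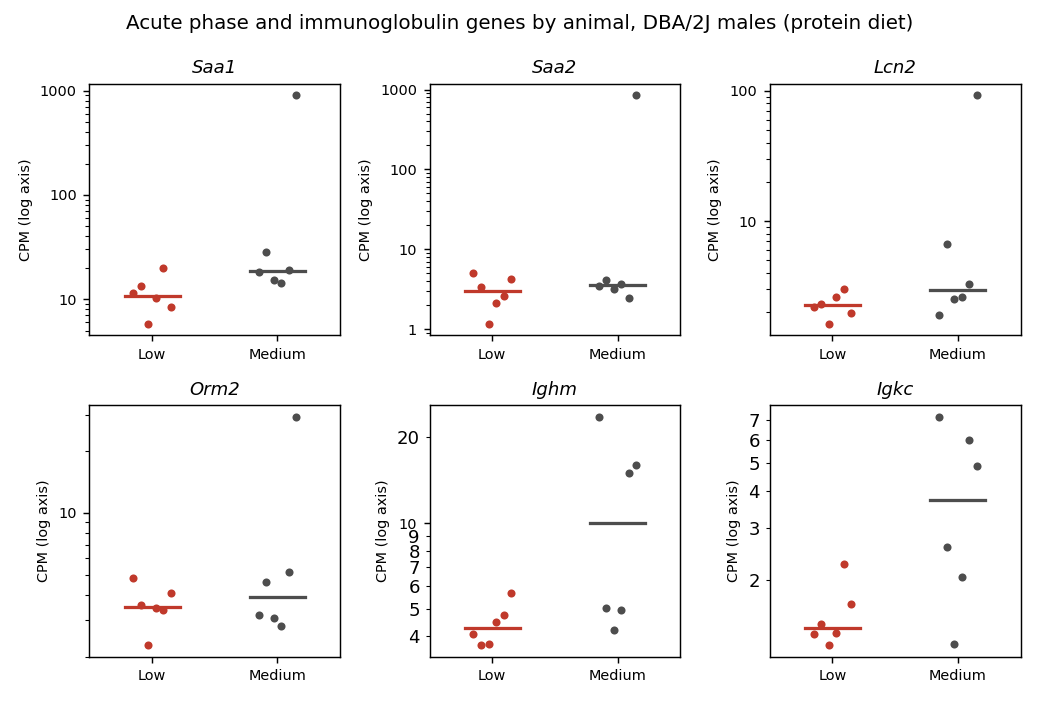
CPM of 4 acute phase genes (Saa1, Saa2, Lcn2, Orm2) and 2 immunoglobulin genes (Ighm, Igkc) in every animal on a log axis, Low Protein left of Medium Protein, with a line at the median. A single Medium Protein animal stands at 906 CPM for Saa1 and 853 CPM for Saa2, and Ighm and Igkc spread more in Medium Protein livers.

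Other immune and cell type lists differed in direction. Of 42 interferon response genes, 12 were above 0, 3 were lower at an unadjusted p below 0.05, and the median was -0.07. Between 6 and 18 were above 0 when 1 animal was left out, and 19 with library totals. Ifi44, an interferon-induced protein, had 8.135, 10.7 and 16.7 CPM in Low Protein livers and 13.0, 18.55 and 19.99 CPM in Medium Protein livers, overlapping, with a log2 fold change of -0.65 ± 0.24 (adjusted p = 0.684). Rsad2, the antiviral protein viperin, had -0.46 ± 0.19. Without Medium Protein replicate 5 that value was -0.30. The list's summed CPM had a median of 1184 in Low Protein livers and 1382 in Medium Protein livers, and 4 of the 6 Low Protein sums lay below every Medium Protein sum. Low Protein replicate 6 had the highest sum of all 12, at 1786, and was also highest for Kupffer cell and macrophage markers, at 537 CPM, against 221 to 293.5 CPM in the other Low Protein livers and 265.5 to 376 CPM in Medium Protein livers. Adipocyte markers reached 22.9 CPM in Medium Protein replicate 6 and 3.17 to 5.99 CPM in the other 11 animals, and the 2 members tested had a median log2 fold change of -0.56. Their part in the results above was not tested. Prss1, Cela2a and Try4 of the pancreatic acinar list were at 0 in all 12 libraries, and no skeletal muscle marker was expressed enough to be tested. Red blood cell genes had 7 of 8 members above 0 and a median of 0.42, led by the globin Hba-a2 at 0.87 ± 0.37, which has a near-identical copy. Their sum had a median of 251 CPM in Low Protein livers and 209 CPM in Medium Protein livers.

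Several broad lists differed by little per gene. All 20 heat shock and chaperone genes were above 0, 3 of them at an unadjusted p below 0.05, with a median of 0.25. Fkbp4, a co-chaperone of Hsp90, had 54.1, 69.7 and 78.9 CPM in Low Protein livers and 48.7, 54.2 and 59.2 CPM in Medium Protein livers, with a log2 fold change of 0.31 ± 0.13, and the inducible chaperone Hspa1b, which has a near-identical copy, had 1.30 ± 0.63, which became 0.81 without Low Protein replicate 6 and 0.72 in limma-voom. The list's summed CPM had a median of 2382 in Low Protein livers and 2207 in Medium Protein livers, but Low Protein replicates 3 and 4, at 1963 and 1867, lay below every Medium Protein sum. Fatty acid oxidation and other PPARA targets had 36 of 46 members above 0, 4 higher at an unadjusted p below 0.05, and a median of 0.07. Pex11a, which divides peroxisomes, had 65.5, 73.8 and 108 CPM in Low Protein livers and 37.2, 50.3 and 64.5 CPM in Medium Protein livers, without overlap, a log2 fold change of 0.61 ± 0.19 (adjusted p = 0.601). Ucp2, a mitochondrial carrier, had 0.54 ± 0.18, and 0.35 without Low Protein replicate 6. Of 81 nuclear-encoded respiratory chain genes, 65 were above 0 with a median of 0.07, and of 77 cytosolic ribosomal protein genes, 61 were above 0 with a median of 0.04. Leaving out 1 animal at a time gave 62 to 74 and 49 to 75 above 0. Library totals alone put 74 above 0 in each list and moved the median of all genes to 0.05, so both counts varied with the animals and the scaling. Rpl41 of the ribosome had 103, 109.5 and 111 CPM in Low Protein livers and 87.8, 94.3 and 99.3 CPM in Medium Protein livers, without overlap, and Cox8a of the respiratory chain had 42.25, 47.1 and 68.25 CPM in Low Protein livers and 38.6, 40.6 and 43.3 CPM in Medium Protein livers, with log2 fold changes of 0.21 ± 0.07 and 0.29 ± 0.09. Without Low Protein replicate 1 that of Cox8a was 0.18. Of the hepatocyte markers, 3 of 10 were above 0. Ahsg, the plasma protein fetuin-A, had 3435, 3555 and 3840 CPM in Low Protein livers and 4006, 4314 and 4778 CPM in Medium Protein livers, without overlap, a log2 fold change of -0.27 ± 0.10. Of 42 female-biased liver genes 18 were above 0, with 2 higher and 5 lower at an unadjusted p below 0.05. Among the lower ones, Lpl, lipoprotein lipase, had -0.90 ± 0.31 and Cyp3a44, a cytochrome P450 with close relatives, -1.68 ± 0.56. Cyp3a44 was at a very low level in Low Protein livers, 0.264 to 0.74 CPM apart from replicate 3 at 2.59 CPM. Its p in the authors' deposited table was 0.107. Of 39 male-biased genes, 23 were above 0 with a median of 0.05. Their summed CPM leaned the other way, with a median of 47310 in Low Protein livers and 55510 in Medium Protein livers, and 4 of the 6 Low Protein sums lay below every Medium Protein sum.

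The diet comparison differed between the strains. In C57BL/6J males the same contrast, Low against Medium Protein, called 1264 genes (6.53%), 469 higher (2.42%) and 795 lower (4.11%). The direct test of the difference, DBA/2J males minus C57BL/6J males, called 174 genes (0.899%), 133 with a higher (0.687%) and 41 with a lower value (0.212%) in DBA/2J males. Scaling by library totals alone called 130, 37 higher and 93 lower, shifting the median of all genes to -0.13 from 0.01, and shared 78 of the 174 calls. The 174 calls came to 86 without C57BL/6J Low Protein replicate 5, 106 without DBA/2J Low Protein replicate 1 and 115 without C57BL/6J Medium Protein replicate 6, in which ribosomal-like RNA took 9.78% of counts. In all 24 fits that left out 1 male, all 174 genes kept their sign. The genes were chosen for their values in these same animals, so a kept sign is not separate evidence.

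App, the amyloid precursor protein, showed the smallest p of the strain difference. In DBA/2J males it had 59.5, 64.2 and 67.45 CPM on Low Protein and 57.9, 62.6 and 72.4 CPM on Medium Protein, a log2 fold change of -0.01 ± 0.10. In C57BL/6J males it had 69.1, 91.4 and 120.0 CPM on Low Protein and 37.1, 40.6 and 46.3 CPM on Medium Protein, a log2 fold change of 1.18 ± 0.10. The difference was -1.19 ± 0.14 (adjusted p = 9.59e-08). The diets overlapped in DBA/2J males and were apart in C57BL/6J males. Slc23a1, a vitamin C transporter, Sulf2, which trims sulfate from heparan sulfate, Mpv17l, Dct, a melanin enzyme, and Abat, which breaks down GABA, came next once an unnamed gene was left out. Their differences were 1.05 ± 0.14, 1.92 ± 0.27, 1.598 ± 0.25, 3.73 ± 0.60 and 0.82 ± 0.13. In each of these 5 genes the DBA/2J value lay between -0.20 and 0.29 and the C57BL/6J value between -3.76 and -0.82.

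Amino acid metabolism made up a visible part of the strain difference. Of 60 amino acid catabolism genes, 14 were called with a higher value in DBA/2J males and 0 with a lower one, with a median difference of 0.43, beside 0.687% of all genes called higher. In C57BL/6J males alone 43 of the 60 were called lower, beside 4.11% of all genes, and 2 were above 0. The median there was -0.46, against -0.03 in DBA/2J males. Library totals left 2 of the 14 calls and leaving out the 5 libraries of the series with over 4% ribosomal-like RNA left 6. Bhmt, which remethylates homocysteine with betaine, had 6376, 6654 and 9612 CPM on Low Protein and 5409, 6487 and 7621 CPM on Medium Protein in DBA/2J males. In C57BL/6J males it had 588, 1459 and 2984 CPM on Low Protein and 2918, 4717 and 6904 CPM on Medium Protein. The log2 fold change was 0.15 ± 0.24 in DBA/2J males and -1.47 ± 0.25 in C57BL/6J males, a difference of 1.61 ± 0.34 (adjusted p = 0.00579). Dmgdh, the next enzyme of betaine breakdown, Ftcd, of histidine breakdown, Asrgl1, an asparaginase, Bhmt2 and the folate enzyme Aldh1l1 had differences of 0.99, 0.90, 0.70, 0.59 and 1.01.

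Of the urea cycle, Slc25a15, the ornithine carrier, and Asl, argininosuccinate lyase, were called. Slc25a15 had a log2 fold change of 0.22 ± 0.11 in DBA/2J males and -0.43 ± 0.11 in C57BL/6J males, a difference of 0.65 ± 0.16 (adjusted p = 0.0293), and Asl one of 0.15 ± 0.24 in DBA/2J males and -1.15 ± 0.24 in C57BL/6J males, a difference of 1.30 ± 0.34 (adjusted p = 0.0425). Both were near the threshold and missed it in 6 and 13 of the 24 fits that left out 1 male, with adjusted p up to 0.0839 without C57BL/6J Low Protein replicate 5 and 0.118 without C57BL/6J Medium Protein replicate 2. Psat1, which makes serine, was below 1 CPM in all 12 DBA/2J males of both diets. In C57BL/6J males it had 1.205, 5.403 and 8.10 CPM on Low Protein and 0, 0.242 and 0.430 CPM on Medium Protein. Its difference was -4.58 ± 0.83 (adjusted p = 0.00104). Acot2, a mitochondrial thioesterase and PPARA target, had 0.11 ± 0.28 in DBA/2J males and 1.89 ± 0.28 in C57BL/6J males, a difference of -1.78 ± 0.39.

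**Figure D5:**
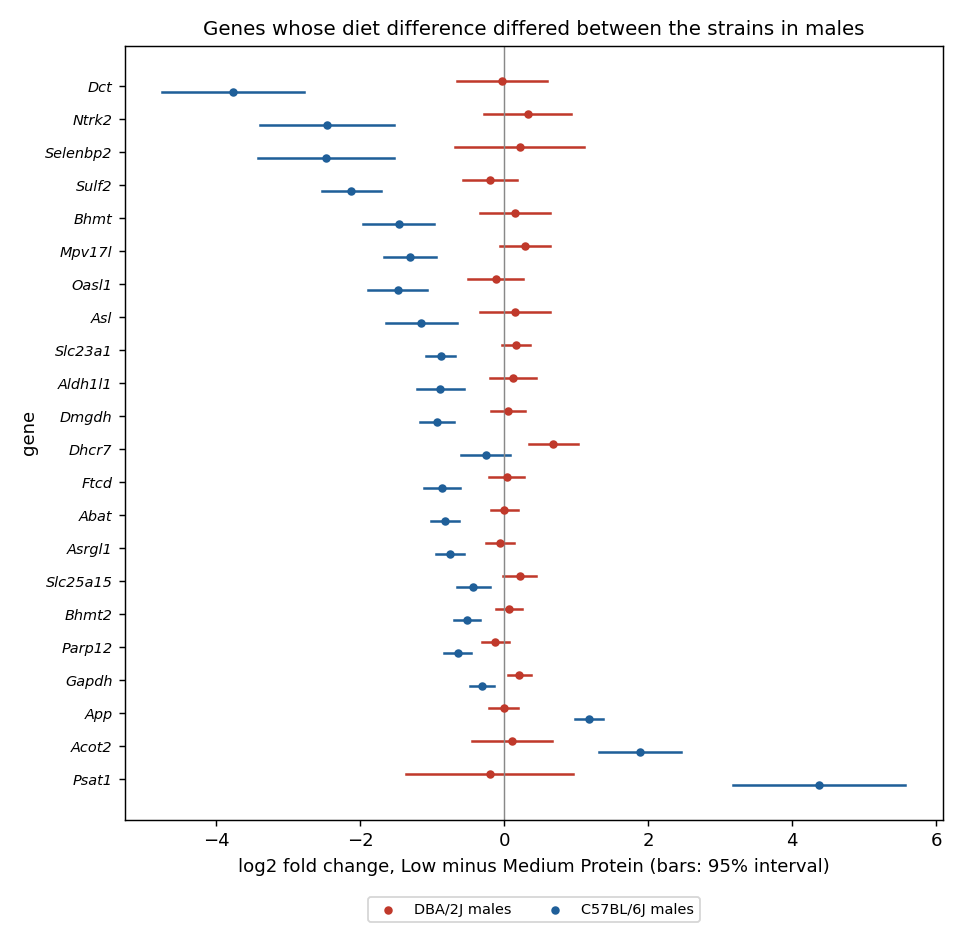
Log2 fold change, Low against Medium Protein (x axis), with its 95% interval for 22 genes whose value differed between the strains, in DBA/2J males (red) and in C57BL/6J males (blue). Most red intervals span 0, while most blue ones lie away from it; Dhcr7 is at 0.68 in DBA/2J males and -0.26 in C57BL/6J males.

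Of the cholesterol list only Dhcr7 was called in the strain difference, at 0.68 ± 0.17 in DBA/2J males and -0.26 ± 0.17 in C57BL/6J males, 0.94 ± 0.24 apart (adjusted p = 0.0371). It missed the threshold in 10 of the 24 fits that left out 1 male, with adjusted p up to 0.103 without C57BL/6J Medium Protein replicate 6. Of the genes with the smallest p above, Rdh16f2, Tanc1 and Rtn4ip1 were called, with differences of -1.27 ± 0.25, -0.41 ± 0.09 and 0.52 ± 0.14. They were picked for their values in DBA/2J males, which enter this difference, so these calls are not separate evidence. Gapdh of glycolysis had 0.21 ± 0.08 in DBA/2J males and -0.31 ± 0.08 in C57BL/6J males. The interferon genes Oasl1 and Parp12 had -0.12 in DBA/2J males each, and -1.48 and -0.65 in C57BL/6J males. Selenbp2, which has a close copy, and Ntrk2, a neurotrophin receptor, had large differences, 2.69 ± 0.65 and 2.79 ± 0.56. Parp12 missed the threshold in 5 and Selenbp2 in 2 of the 24 fits, with adjusted p up to 0.0837 without C57BL/6J Low Protein replicate 5 and 0.122 without C57BL/6J Medium Protein replicate 5.

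The same diet comparison in DBA/2J females called 8 genes (0.0413%), and the difference between the sexes, males minus females, called 0 (0%) in edgeR's fit, with 996 genes (5.14%) at an unadjusted p below 0.05. DESeq2 called 7, 5 higher and 2 lower in males. The autosomal genes named for a small p, predicted and low-level genes left out, were Cyp3a13, at -0.18 ± 0.17 in males and 0.76 in females, Ick, a ciliary kinase, Arl2, and Aars2, a mitochondrial alanyl-tRNA synthetase. Their differences were -0.94 ± 0.23, 0.53 ± 0.13, 0.68 ± 0.17 and 0.64 ± 0.17, with adjusted p of 0.451 or more. Uty and Ddx3y, which lie on the Y chromosome, were the other two of the 6 genes so chosen.

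Within DBA/2J males, Low Protein against Control called 18 genes (0.0930%), 9 higher (0.0465%) and 9 lower (0.0465%), and Medium Protein against Control called 1 lower (0.00516%). Both share animals with the comparison of Low with Medium Protein, so only values are given side by side. Hsd17b7 had a log2 fold change of 0.60 for Low against Medium Protein, 0.50 on Low Protein and -0.10 on Medium Protein, both against Control. Lss had 0.74, 0.56 and -0.18 in the same order, Aatk 0.92, 0.97 and 0.05, and Fdps 1.10, 1.17 and 0.07. For Rdh16f2 the values were -0.85, -0.58 and 0.27, and for Ahsg -0.27, -0.36 and -0.10. Saa2 had -5.56, -1.49 and 4.07, and Fgf21 had 0.18, -0.33 and -0.51.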

How the data were processed

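RNA was measured by sequencing of polyadenylated liver RNA in 72 mice, 12 of them compared here; per the labels the libraries were stranded, were spread over 2 lanes and were merged per sample before quantification. The authors deposited RSEM expected counts per gene for 51912 Ensembl identifiers. The submitters' processing notes list R 3.4.3 beside RSEM, edgeR and limma. For the other versions, aligner and genome build no source used here gives a name. The authors' deposited table also holds, per comparison, log2 fold changes with their raw and adjusted p-values, and a score, the F statistic, that was not used. Symbols came from GENCODE M21 and matched 51633 identifiers; promoters and their coordinates came from RefSeq on GRCm38.p6, which may not be the authors' build.

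Here, 11.6% of the values were not whole, and all were rounded. All 72 libraries, totalling 26.9 to 38.4 M counts, entered 1 edgeR 4.0.16 quasi-likelihood fit (R 4.3.3) of 12 group means with TMM scaling, after filterByExpr left 19362 genes. Residual degrees of freedom were 60 and the common biological coefficient of variation was 0.207. Tests were two-sided. Calls were made at an adjusted p below 0.05, by Benjamini-Hochberg over all 19362 genes. The script was tested on simulated data. Each library is a separate animal, per the sample titles' animal tags. Groups came from the titles.

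Lists were described by counts and medians, with no set test. Some genes that these rules chose are not reported by name here, although list counts include them. The comparison, lists and rules were chosen with earlier results of these data known. By rule the text named called genes or, where fewer, up to 10 per direction with the smallest p and a mean log2 CPM of at least 0, without predicted or unnamed genes, then 2 genes per list, 8 genes in every case, and 6 per difference between comparisons. The other cholesterol synthesis members, Lcn2, Cps1 and Fgb, and Rdh16f2, Tanc1 and Rtn4ip1 in the strain difference, were added after their values were seen. Alternatives were other scalings and filters, limma-voom (limma 3.58.1), DESeq2 1.42.0, the letter of the sample codes as a covariate, and leaving out animals. Tables were handled in Python 3.11.15 with pandas 2.3.3 and numpy 2.4.6.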

Additional observations from a re-analysis of the deposited data

Results flagged for a closer look

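Single animals stood apart from the other 5 of their group in 19 of 150 pairs of gene and group looked at, over 75 genes. The rule was Dixon's test on CPM at its 95% critical value. Chance passes it in about 1 of 20 groups if values are normally distributed and independent. CPM need not be normally distributed, and genes flagged in the same animal are not independent, so 19 of 150 cannot be set against that rate. Medium Protein replicate 6 was far above its group in Saa1 at 906 CPM, Saa2 at 853 CPM and Lcn2 at 92.5 CPM, all acute phase genes. Medium Protein replicate 4 was high in Tlr12 at 10.0 CPM, Lepr at 15.25 CPM, Eno1 at 117 CPM and Trib3 at 21.1 CPM. Medium Protein replicate 2 was high in Fgf21 at 53.5 CPM and Lpl at 42.9 CPM, and replicate 5 in Rsad2 at 66.4 CPM. Low Protein replicate 3 was high in Pdk4 at 42.5 CPM, Lepr at 28.35 CPM, Lpl at 21.8 CPM and Cyp3a44 at 2.59 CPM. Low Protein replicate 1 was high in Srebf2 at 32.7 CPM, Eno1 at 135 CPM and Cox8a at 68.25 CPM. Low Protein replicate 2 was high in Asns at 0.979 CPM, and replicate 6 was low in Tanc1 at 14.7 CPM.

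The diet comparison differed between the strains by a direct test for 174 genes, DBA/2J males minus C57BL/6J males. Among those described, the differences in log2 fold change above 0 were 3.73 for Dct, 2.79 for Ntrk2, 2.69 for Selenbp2, 1.92 for Sulf2, 1.61 for Bhmt, 1.598 for Mpv17l, 1.36 for Oasl1, 1.30 for Asl, 1.05 for Slc23a1, 1.01 for Aldh1l1, 0.99 for Dmgdh, 0.94 for Dhcr7, 0.90 for Ftcd, 0.82 for Abat, 0.70 for Asrgl1, 0.65 for Slc25a15, 0.59 for Bhmt2, 0.53 for Parp12 and 0.52 for Gapdh. Those below 0 were -4.58 for Psat1, -1.78 for Acot2 and -1.19 for App.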

How the results depend on the processing

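Of the recomputed values, 3311 kept their direction and side of the threshold, or stayed near the reported count. Another 63 lost the call, 6 gained it, 41 counts moved by over 1.5 times and 9 turned direction. Only genes called as reported could lose a call. None was called for Low against Medium Protein in DBA/2J males or for the sex difference. The cause of the changes was not tested. For Low against Medium Protein in DBA/2J males, leaving out 1 animal at a time called 0 to 1 genes and DESeq2 called 7, against 0 as reported and under every other alternative run. For the strain difference in males, reported as 174, the count was 86 with no filter, 48 against a fold of 1.2 and 263 with DESeq2. It was 94 without the 5 libraries with over 4% ribosomal-like RNA. These include C57BL/6J Medium Protein replicate 6, which is part of the strain difference, and none of the 12 DBA/2J males compared. Leaving out 1 male at a time gave 86 to 248. DESeq2 called 7 genes for the sex difference, reported as 0. Values close to 0 turned sign: Igf1 was 0.0247 with library totals and -0.0577 to 0.0187 when 1 animal was left out, Cyp7a1 -0.45 to 0.0189, Asns -0.44 to 0.18 and Cps1 -0.0326 to 0.16. Under all alternatives run, 25 cholesterol synthesis members stayed above 0, and 15 to 22 had an unadjusted p below 0.05. No paired analysis was possible because the labels give animal tags and no replicate numbers shared between the diets. Depth limits genes with a low level, such as Asns, more than abundant ones.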
